A study of Oryza sativa with 36 samples.

Results

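The comparison B1415_early/B14_early set 3 libraries of rice leaf sheaths that carry BPH14 and BPH15 against 3 libraries that carry BPH14 alone, all taken during early feeding of the brown planthopper (BPH). The libraries were chosen by their column labels, B1415_early-1 to B1415_early-3 and B14_early-1 to B14_early-3, and are 6 of the 36 libraries of the series. Both lines are near isogenic lines (NILs) in the indica variety 'Wushansimiao', the recurrent parent (RP), so both groups share the RP genome, BPH14 and the BPH treatment, and by design differ in BPH15. According to the methods, each replicate held 15 seedlings with 8 nymphs per seedling, and leaf sheaths were sampled. The methods put samples infested for 3, 6 and 12 h in the early group and do not state how the times were combined in a library. These times cannot be told apart, and the sample labels list one of the times differently. Plants kept free of BPH (B14_0 and B1415_0), plants at the late feeding stage, the line with BPH15 alone (B15) and RP itself were used only for context.

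BPH is a sap-sucking insect that feeds on the phloem of the leaf sheath. BPH14 encodes an intracellular immune receptor of the CC-NBS-LRR class, and BPH15 encodes a lectin receptor kinase at the plasma membrane. Receptors of the first kind recognise effectors inside the cell, and receptor kinases sense signals of damage or of the insect at the cell surface. Breeding a resistance gene into a NIL also carries along flanking DNA of the donor, so the lines may differ in linked genes as well as in the receptor. The question of the comparison is which genes differ when BPH15 is added to BPH14 at the time the insect starts to feed.

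The total counts of the 6 libraries were between 14224176 and 18692187. Neither BPH14 nor BPH15 is named in the deposited table, so the labels were checked by genes that set the lines apart. Over 34 libraries, all but those labelled B1415_late-3 and B15_late-3, 4 genes separated all B14 and B1415 libraries from all RP and B15 libraries, 3 of them with neighbouring numbers at the end of chromosome 3 (Os03g0848700, Os03g0852900 and Os03g0854200). Os03g0848700 had 21.5, 16.7 and 22.0 CPM (counts scaled to library size) in B14_early and 34.4, 30.1 and 31.4 CPM in B1415_early, against at most 0.43 CPM in RP_early and B15_early. These genes were chosen for separating the lines, so the place of the 6 libraries among them is a description and not a test of their labels, and over all 36 libraries no gene did so. The library labelled B1415_late-3 had 0 CPM of this gene and the library labelled B15_late-3 had 37.5 CPM, both against their labels. Counts of DEGs at the late stage are therefore given with and without B1415_late-3, and late values of single genes only with it. The rank correlations across genes were at least 0.9926 within B1415_early, at least 0.9886 within B14_early and at most 0.9858 between the lines. B14_early-3 correlated most closely with B15_early-1 (0.991), slightly above its own group (0.989). No pair of replicates agreed within sampling noise.

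Of 24563 genes tested, 687 were differentially expressed genes (DEGs), which is 2.8% of the genes tested. DEGs had a Benjamini-Hochberg adjusted p under 0.05 by the quasi-likelihood test of edgeR and a log2 fold change beyond 1 in either direction. A positive value means a higher level in B1415_early. Most DEGs were higher in B1415_early, with 571 higher (2.32% of the genes tested) and 116 lower (0.472%). An unadjusted p with 2-fold would have called 3.75%. Without the limit on fold change, 6530 genes (26.6%) passed the adjusted p, 3419 higher and 3111 lower. Most differences were thus smaller than 2-fold, and the higher genes were in the majority by far more among the DEGs than among all genes past the adjusted p. The log2 fold change of 358 higher and 59 lower DEGs lay between 1 and 1.5, and 12 higher and 7 lower DEGs had one beyond 3. The 3 libraries of one line lay entirely above the 3 of the other for 673 of the 687 DEGs, and for 43.3% of all genes tested. In bulk tissue, fewer cells of a type and less RNA per cell cannot be told apart.

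**Figure D1:**
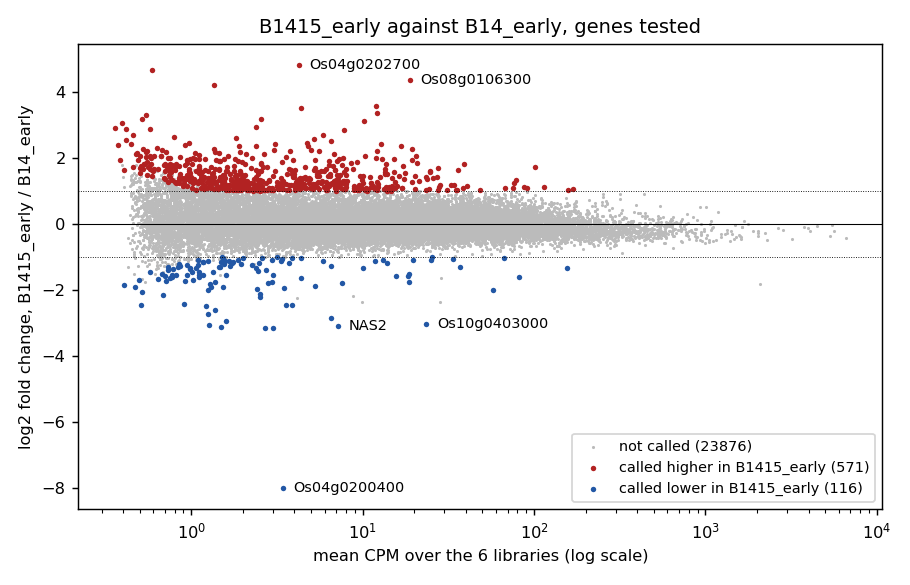
Log2 fold change of B1415_early over B14_early (vertical axis) against the mean CPM over the 6 libraries (horizontal axis, log scale) for the 24563 genes tested. Red points are the 571 DEGs higher in B1415_early and blue points the 116 lower ones, dotted lines mark 2-fold, and Os04g0200400 lies lowest at -8.00 and Os04g0202700 highest at 4.80.

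The number of DEGs depended on single libraries of B14_early. Without B14_early-3 there were 1360 DEGs, of which 1234 were higher in B1415_early, and without B14_early-2 there were 424. Of the 687 DEGs, 613 were still called without B14_early-3 and 392 without B14_early-2. B14_early-2 also stood apart by its share of counts on small noncoding RNA genes, 0.782% against 0.0565% to 0.196% in the other 5 libraries. Its scaling factor (TMM) of 0.938 was the lowest among the libraries compared. According to the paper's summary of reads, B14_early-2 also had the lowest mapping rate among them. The part of these features in the result was not tested.

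The largest log2 fold changes in each direction lay in the region of BPH15, though the gene with the smallest adjusted p, Os08g0106300, did not. BPH15 maps to the short arm of chromosome 4, and the region was taken as the loci numbered Os04g01xxxxx and Os04g02xxxxx. Of 298 genes tested there, 13 were DEGs (4.36%), 8 higher and 5 lower, against 2.78% of all other genes. The DEGs were concentrated in Os04g02xxxxx, where 9 of 122 genes were called (7.38%), the highest share among the bins of locus numbers with at least 25 genes tested. The bin next in order, Os08g03xxxxx, had 6.00%, and the shares of whole chromosomes lay between 2.45% and 3.53%.

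**Figure D2:**
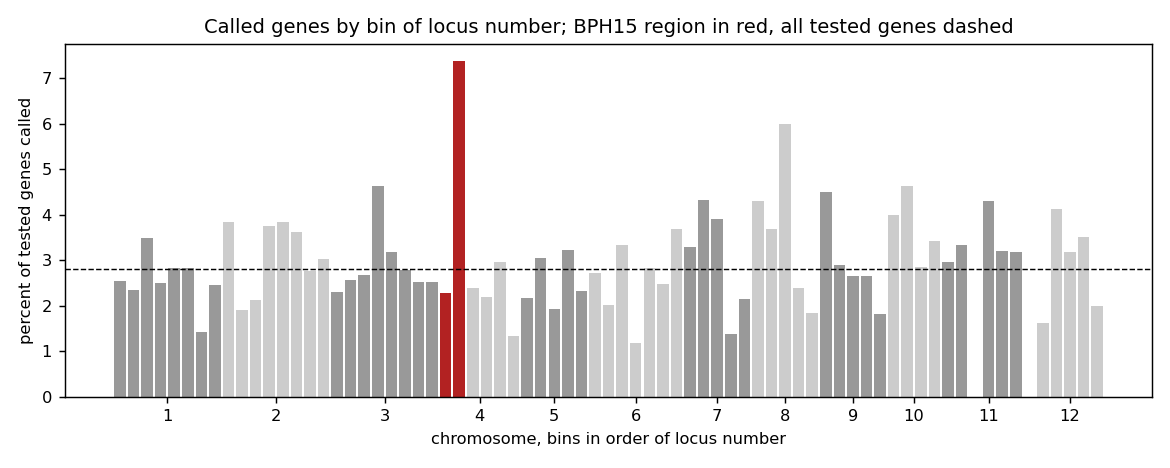
Percent of tested genes that were DEGs in B1415_early/B14_early (vertical axis) for bins of locus numbers in order along the 12 chromosomes (horizontal axis), for bins with at least 25 genes tested. The 2 bins of the BPH15 region are red, the dashed line marks the 2.8% of all genes tested, and the bin Os04g02xxxxx stands at 7.38%.

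Os04g0200400, annotated in the study's tables only as similar to a predicted protein of a genomic clone, had 6.99, 6.94 and 6.45 CPM in B14_early and 0.0534, 0 and 0 CPM in B1415_early. The groups were far apart, with 340 counts in the B14_early libraries and 1 count in those of B1415_early. The ratio was 367-fold, with a 95% exact binomial interval of 65.4 to 14500 that covers counting error only. The fitted log2 fold change was -8.00 ± 0.45 (SE), with an edgeR adjusted p of 1.2e-07. It was at 14.3 to 15.1 CPM in RP_early and at no more than 0.0624 CPM in B15_early, so the lines with BPH15 lay near 0 and the lines without it did not.

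Os04g0202700 showed the opposite pattern. It had 0.596, 0.202 and 0.0597 CPM in B14_early and 8.87, 7.70 and 8.07 CPM in B1415_early, a log2 fold change of 4.80 ± 0.35 (SE, edgeR adjusted p = 1.86e-06). Its level in B15_early (6.71 to 7.80 CPM) was close to that of B1415_early, and its level in RP_early (0.122 to 0.376 CPM) close to that of B14_early. The next tested locus, Os04g0202800, was also higher, with at most 0.179 CPM in B14_early and 0.919 to 1.07 CPM in B1415_early (log2 fold change 3.29). No gene name or role was given for either locus in the sources used.

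Os04g0196600 was measured at a higher count and changed less. It had 26.3 to 30.3 CPM in B14_early against 10.4, 8.60 and 8.99 CPM in B1415_early, with a log2 fold change of -1.52 ± 0.11 (SE, edgeR adjusted p = 1.89e-06). Os04g0196600, Os04g0196850, Os04g0197200 and Os04g0200400 were consecutive among the loci tested, and all were DEGs, Os04g0197200 higher and the other 3 lower. The remaining DEGs of the region were smaller in size or count, with log2 fold changes from -1.56 to 2.15. Os04g0217900 (1.03) was the closest to the 2-fold limit, and its call was lost in 7 of its 10 alternatives.

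Over all stages, only 4 of the 24563 genes separated the 18 libraries labelled B15 or B1415 from the 18 labelled RP or B14. All 4 were DEGs of B1415_early/B14_early in the BPH15 region, namely Os04g0196600, Os04g0200400, Os04g0202700 and Os04g0202800. The libraries that chose these 4 genes include those of B1415_early/B14_early, so that they were DEGs is a description and not a test. Os04g0202700 ranged from 4.98 to 8.87 CPM over the B15 and B1415 libraries and from 0.0597 to 0.704 CPM over the RP and B14 libraries. This pattern does not distinguish B15 from B1415, so it is not touched by the late libraries that go against their labels. No gene set the 9 libraries labelled B1415 apart from the other 27, a count that the library labelled B1415_late-3 enters.

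A second group of DEGs set B14 apart from every other line. The 9 B14 libraries lay apart from the 27 libraries of RP, B15 and B1415 for 19 genes (0.0774% of the genes tested). Of the 19, 15 were DEGs, 13 of them lower and 2 higher in B1415_early, beside 2.8% of all genes tested. The libraries that chose these genes include those compared, so this count is a description and not a test. None of the 19 lay in the BPH15 region, and the 13 lower ones lay on 8 chromosomes. The named ones were NAS2, Gn1a and OsSCP7.

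NAS2 (Os03g0307200) had 13.4, 12.4 and 13 CPM in B14_early and 1.02, 2.25 and 0.985 CPM in B1415_early. The groups did not overlap, and the log2 fold change was -3.10 ± 0.24 (SE, edgeR adjusted p = 2.78e-06). OsNAS1 (Os03g0307300), the next locus, had 10.9, 12.5 and 11.3 CPM in B14_early and 1.39, 1.90 and 1.25 CPM in B1415_early (log2 fold change -2.86 ± 0.19, edgeR adjusted p = 7.68e-07), though over all stages its B14 libraries overlapped those of RP. Both encode nicotianamine synthases, which make nicotianamine, a chelator of iron and zinc and the precursor of the phytosiderophores of grasses. The 2 loci are close relatives, and reads shared between them could have been assigned to either. NAS2 was at 0.793 to 2.09 CPM in RP_early and at most 0.0651 CPM in B15_early. B1415_early was therefore at the level of RP_early, and B14_early was the group that stood apart.

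Gn1a (Os01g0197700), a cytokinin oxidase/dehydrogenase that degrades cytokinin and is known for its effect on grain number, had 5.26, 4.45 and 6.63 CPM in B14_early. In B1415_early it had 0.160, 1.10 and 0.460 CPM, giving a log2 fold change of -3.15 ± 0.39 (SE, edgeR adjusted p = 0.000119). OsSCP7 (Os02g0463500), a serine carboxypeptidase, had 6.62, 6.74 and 6.51 CPM in B14_early and 0.802, 2.10 and 0.460 CPM in B1415_early (log2 fold change -2.45 ± 0.33). Both were below 1 CPM in every library of RP_early and B15_early. Os10g0403000, for which no name was found, was the gene of this pattern with the most counts, at 45.3, 39.1 and 42.2 CPM in B14_early against 2.51, 8.3 and 4 CPM in B1415_early (-3.02 ± 0.24).

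Os08g0106300 was low in B14 alone. It had 2.06, 1.68 and 1.67 CPM in B14_early and 28.7, 43.7 and 34.8 CPM in B1415_early, with a log2 fold change of 4.35 ± 0.18 (SE, edgeR adjusted p = 4.79e-09). RP_early (20.2 to 25.7 CPM) and B15_early (27.5 to 42.1 CPM) lay near B1415_early. Its tested neighbour Os08g0106000 was also a DEG, with a log2 fold change of 1.47.

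**Figure D3:**
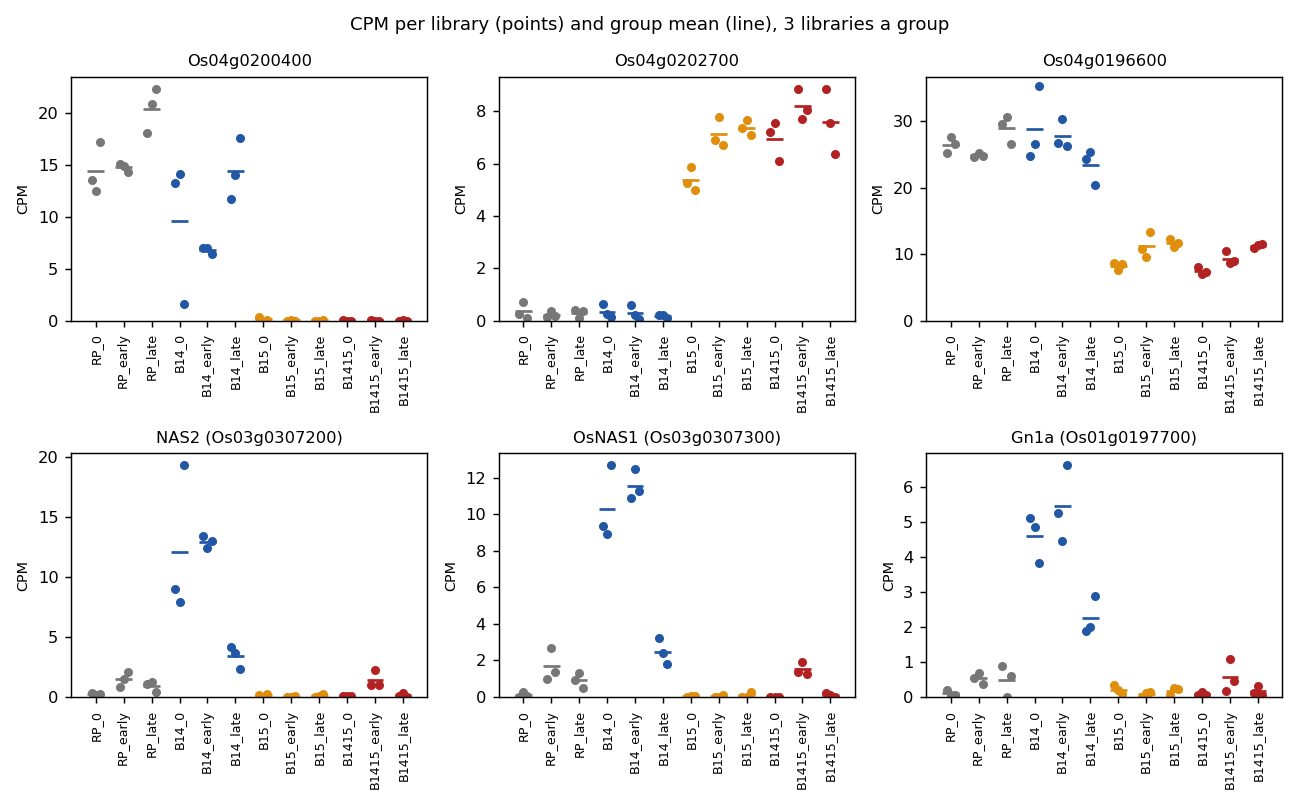
CPM of 6 genes in each of the 36 libraries (points) with the group mean (line), by line and stage (0 is before BPH feeding). The upper panels show 3 genes of the BPH15 region, where B15 and B1415 lie apart from RP and B14, and the lower panels show NAS2, OsNAS1 and Gn1a, with their highest levels in B14_0 and B14_early (late libraries are under their labels).

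Other lower DEGs did not show B14 apart from every other line over all stages. OsCML5 (Os12g0603800), a calmodulin-like calcium sensor, had 1.79 to 2.33 CPM in B14_early and 0.321 to 0.700 CPM in B1415_early (log2 fold change -2.01 ± 0.39, edgeR adjusted p = 0.00192). RP_early (0.376 to 0.549 CPM) overlapped B1415_early, and B15_early was at 1.12 to 1.30 CPM. B14_early thus lay above the other 3 lines at this stage, but over all stages the B14 libraries overlapped those of RP. Os11g0556400 had 4.65 to 5.26 CPM in B14_early, 4.70 to 7.20 in RP_early and 3.26 to 4.87 in B15_early, against 0.321 to 0.650 CPM in B1415_early (-3.17 ± 0.29). B1415_early thus lay below the other 3 lines at this stage.

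Further named genes among the lower DEGs had fewer counts. YUCCA4 (Os01g0224700), a flavin monooxygenase of auxin synthesis, had 1.37 to 1.95 CPM in B14_early and 0.500 to 0.722 CPM in B1415_early (log2 fold change -1.45 ± 0.37, edgeR adjusted p = 0.0103). OsNF-YC13 (Os01g0183400), a subunit of a CCAAT-binding transcription factor, fell by 1.27 on the log2 scale (edgeR adjusted p = 0.0109). Their calls were lost when B1415_early-2 was left out (-1.34 and -1.03). Of the 116 lower DEGs, 19 were annotated in the study's tables, and the others have no name here.

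Among the 571 higher DEGs, 59 were annotated, and 41 of these (69.5%) only as hypothetical or conserved hypothetical genes, against 43.9% of all annotated genes tested and 3 of the 19 lower ones. The largest annotated changes were in Os06g0255200, a conserved hypothetical protein, and Os02g0470600, a putative phosphoinositide-binding protein. Os06g0255200 had 1.41, 0.943 and 3.34 CPM in B14_early and 31.3, 15.1 and 19.5 CPM in B1415_early (log2 fold change 3.57 ± 0.33, edgeR adjusted p = 1.59e-05). Os02g0470600 had 0.472 to 1.08 CPM in B14_early and 5.65 to 10.4 CPM in B1415_early (3.52 ± 0.31, edgeR adjusted p = 9.49e-06). Os07g0645200, annotated as similar to a protein with a FAT domain, rose from 1.35 to 2.99 CPM in B14_early to 9.65 to 20.4 CPM in B1415_early (2.83 ± 0.32). All 3 were higher still in RP_early, with 42.3 to 51.1, 15.3 to 21.3 and 23.5 to 31.0 CPM, so B1415_early lay between B14_early and RP_early.

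The study's tables name 4 tested loci as glucan synthase-like (GSL) genes, with OsGSL4 and OsGSL9 given to 2 loci each on chromosome 1. They were looked up after their values had been seen. GSL genes make callose, a glucan that plants lay down on sieve plates and that is known to hinder BPH feeding. Os01g0533800 (OsGSL4), which is annotated beyond its symbol only as a conserved hypothetical protein, was a DEG. It had 0.868, 0.606 and 0.896 CPM in B14_early and 3.90, 2.45 and 3.81 CPM in B1415_early, a log2 fold change of 2.13 ± 0.31 (SE, edgeR adjusted p = 0.000332). Os01g0533100 (OsGSL9) was a DEG with 0.488 to 1.19 CPM in B14_early and 1.77 to 2.08 CPM in B1415_early (1.25 ± 0.37, edgeR adjusted p = 0.0213), and its call was lost in 6 of its 10 alternatives. Both were highest in RP_early, at 4.28 to 5.69 CPM for Os01g0533800 and 3.05 to 3.41 CPM for Os01g0533100. In B15_early they were at 0.936 to 1.62 and 0.749 to 1.54 CPM, with log2 fold changes of -1.89 and -1.53 in B15_early/RP_early. A link to callose or to resistance was not tested. The 2 loci of the same names with more counts were not DEGs. Os01g0533500 (OsGSL4), annotated as similar to a callose synthase, had 7.01 to 9.76 CPM in B14_early and 10.2 to 13.1 CPM in B1415_early (0.46 ± 0.15, edgeR adjusted p = 0.0387), and Os01g0533000 (OsGSL9) had overlapping libraries (0.41 ± 0.22, edgeR adjusted p = 0.180).

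Of the intracellular receptors of the NB-LRR type found by a search of the annotations, 8 were tested, 7 had a positive log2 fold change and the median was 0.84, beside 0.12 over all annotated genes tested. Only Os11g0266500 was a DEG, with 8.95, 6.80 and 7.88 CPM in B14_early and 17.8, 13.5 and 16.1 CPM in B1415_early (log2 fold change 1.05 ± 0.15, edgeR adjusted p = 0.000236). This is 1 of 8 genes (12.5%), beside 6.29% of all annotated genes tested. The annotations come from lists of genes that the study called on these same samples. Both the family and the annotated genes were thus already chosen for differing, and these values are a description. Os11g0550500, annotated as an LZ-NBS-LRR class gene, was not found by the search and was added after its values had been seen. It had 6.80 to 10.3 CPM in B14_early and 15.6 to 19.6 CPM in B1415_early (1.05 ± 0.15). Both were just past 2-fold, and both fell below it when B14_early-2 was left out (0.95 and 0.89). The levels in RP_early (16.7 to 18.5 and 17.8 to 19.6 CPM) were again those of B1415_early.

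Other annotated genes that were higher in B1415_early had varied roles. SSG4 (Os01g0179400), an amyloplast protein that affects the size of starch grains, had 20, 14.9 and 20.5 CPM in B14_early and 36, 34 and 39.9 CPM in B1415_early (log2 fold change 1.03 ± 0.12, edgeR adjusted p = 8.3e-05). OsRLCK11 (Os01g0115600), a receptor-like cytoplasmic kinase, had a log2 fold change of 1.11 ± 0.25, and OsHKT3 (Os01g0532600), of a family of sodium and potassium transporters, one of 1.25 ± 0.42. Of these, OsHKT3 had the fewest counts, with at most 1.25 CPM in any of the 6 libraries, and it lost its call in 8 of its 10 alternatives. Among the DEGs with the most counts was Os10g0208500, at 60.6, 43.6 and 39.8 CPM in B14_early and 174, 117 and 171 CPM in B1415_early (1.73 ± 0.15, edgeR adjusted p = 9.73e-06).

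The defense families searched held few tested genes, and with 6.29% of all annotated genes tested called, a count of 0 says little about any of them. Of the 7 tested Bowman-Birk inhibitors, which block insect and microbial trypsin-like proteases, none was a DEG by edgeR at the adjusted p, by DESeq2 or at an unadjusted p with 2-fold. RBBI2-1 (Os01g0124000) had the largest log2 fold change, 0.65 ± 0.11, with 22.1, 29.2 and 22.2 CPM in B14_early and 39.5, 33.5 and 38.3 CPM in B1415_early (edgeR adjusted p = 0.000955), which is a difference below 2-fold. RBBI3-1 (Os01g0124200) differed the other way (-0.38, edgeR adjusted p = 0.00184). By the same 3 criteria, none of 5 WRKY factors, 8 cytochromes P450, 9 UDP-glycosyltransferases and 5 heat shock proteins was a DEG. These families were read only from the annotations of the study's tables, of which the longest was held in part, so most members of each family were not counted. The members counted were also ones that the study had called on these samples.

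A list of 21 genes taken from the study's text and tables, which is not its full set of resistance candidates and includes TBP and SDHA, gave 16 tested genes. None was a DEG by edgeR, by DESeq2 or at an unadjusted p with 2-fold. The study picked most of them on these samples, so the count is not independent evidence. At an adjusted p below 0.05 without the limit on fold change, 3 were higher and 2 lower, a share near the 26.6% of all genes tested. POX8.1 (Os07g0677100), a peroxidase, had 11.0, 10.0 and 11.2 CPM in B14_early and 13.3, 16.7 and 14.3 CPM in B1415_early, a log2 fold change of 0.51 ± 0.12 (SE, edgeR adjusted p = 0.00755). WAK112 (Os10g0180800), a wall-associated kinase known as a negative regulator of blast resistance, had a log2 fold change of 0.68 ± 0.17, but its libraries overlapped (23.4 to 34.1 against 30.2 to 51.7 CPM). TBP (Os03g0657000), the reference gene of the study's qRT-PCR, and SDHA (Os07g0134800), examined there as a reference candidate, had log2 fold changes of -0.01 ± 0.09 and 0.03 ± 0.07. The clock gene GI (Os01g0182600) had 939, 772 and 838 CPM in B14_early and 1173, 1152 and 1177 CPM in B1415_early (0.51 ± 0.08), also below 2-fold. As signs of tissue, the light-harvesting gene LHCB (-0.19 ± 0.09) and the seed gene Glua1 (0.28) did not pass the adjusted p. A histone H2A gene (Os08g0427700), taken as a sign of dividing cells, did pass it, below 2-fold. It had 47.2 to 51.6 CPM in B14_early and 33.0 to 39.6 CPM in B1415_early (-0.41 ± 0.09, edgeR adjusted p = 0.0035).

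The kind of locus went with the direction of change. RAP locus identifiers that do not end in 00 were inserted between the original loci, and they made up 11.9% of the genes tested. They made up 46.6% of the higher DEGs and 8.62% of the lower ones. Of the 2916 such genes tested, 9.12% were higher and 0.343% lower, against 1.40% and 0.481% of the 21603 genes whose identifiers end in 00. The median log2 fold change was 0.36 for the inserted loci and -0.03 for the others. Inserted loci took 2.24%, 2.19% and 2.56% of the counts in B14_early and 2.66%, 2.59% and 2.61% in B1415_early, so the groups did not overlap, though B14_early-3 was close. The inserted loci also had fewer counts, with a median of 2.06 CPM against 16.8 CPM, and whether the counting used strand was not given in the sources used here, so overlapping and antisense loci cannot be told apart from their neighbours.

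Before BPH feeding, the same lines differed in the same direction but with few calls. B1415_0/B14_0 had 22 DEGs (0.0927% of 23739 genes tested). Of the 571 higher DEGs of the early stage, 508 were tested at 0 h and 488 had a positive log2 fold change, with a median of 0.72. Over all genes tested, 51% were positive and 49% negative. Of the 116 lower DEGs, 97 were tested and 88 had a negative value, with a median of -0.95. DEGs at 0 h in the same direction were 2 of the 508 higher (0.394%) and 13 of the 97 lower genes (13.4%), beside 0.0295% and 0.0632% of all genes tested. None was called in the opposite direction by edgeR, by DESeq2 or at an unadjusted p with 2-fold, by which 3.14% of all genes would be called. B14_0-3 stood apart from its group, with rank correlations of 0.933 and 0.938 to the other B14_0 libraries and 0.963 to B15_0-2. Without it, B1415_0/B14_0 had 354 DEGs, and 20 of 537 higher (3.72%) and 36 of 101 lower genes (35.6%) were called in the same direction, beside 1.01% and 0.445% of all genes tested. Of the higher genes, 416 of 537 were then positive, with a median of 0.25. Of the lower genes, 84 of 101 were negative, with a median of -0.86. The shift of the higher genes at 0 h thus rested in large part on B14_0-3, and that of the lower genes did not.

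The lower DEGs lasted longer through feeding. B1415_late/B14_late had 676 DEGs (2.75%, or 4.93% at an unadjusted p with 2-fold), and 1938 (7.72%) without the library labelled B1415_late-3. Among the lower genes, 23 of 99 (23.2%) were lower at the late stage, or 40 of 106 (37.7%) without that library, beside 1.26% and 4.67% of all genes tested. Among the higher genes, 13 of 553 (2.35%) were higher, or 36 of 562 (6.41%), beside 1.49% and 3.05%, and 10 and 17 were called in the opposite direction. Of the lower genes, 1 and 4 were called in the opposite direction. NAS2 had 2.29 to 4.13 CPM in B14_late and at most 0.318 CPM in B1415_late, with a log2 fold change of -4.58. Os06g0255200 had 5.03 to 32.1 CPM in B14_late and 38.7 to 42.0 CPM in B1415_late, and its late log2 fold change of 1.05 did not pass the adjusted p (0.167).

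A line-by-stage interaction, fitted on B14_0, B14_early, B1415_0 and B1415_early, asked whether the difference between the lines changed with feeding. At an adjusted p below 0.05, 2 of 25119 genes passed (0.00796%), OsNAS1 and Os07g0529000, which are named because they are few. OsNAS1 had 9.35, 8.90 and 12.7 CPM in B14_0 and 0 CPM in all 3 B1415_0 libraries. On the log2 scale, though not clearly in CPM, its difference between the lines was therefore larger before feeding. The level in B1415 rose to 1.25 to 1.90 CPM in B1415_early, as it did from at most 0.256 to between 0.976 and 2.69 CPM in RP. Os07g0529000 was at 3.25 to 3.89 CPM in B14_0 and 0.359 to 0.573 CPM in B1415_0, and the early levels overlapped (2.57 to 4.11 and 3.15 to 4.22 CPM). Of the 571 higher DEGs, none passed this test by edgeR, 42 passed at an unadjusted p (4.29% of all genes tested did) and 1 by DESeq2. Of 115 lower DEGs tested, 1 passed by edgeR (OsNAS1), 31 at an unadjusted p and 5 by DESeq2. Without B14_0-3, 600 genes passed, and without most of the other libraries none did.

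B15_early/RP_early, the addition of BPH15 in the RP background, was set beside these values. It shares no library with B1415_early/B14_early and had 3332 DEGs (13.7% of 24380 genes, 7.2% higher and 6.46% lower, and 13.8% at an unadjusted p with 2-fold). Of the 523 higher genes tested there, 284 were DEGs in the opposite direction and 45 in the same one, with a median log2 fold change of -1.11. Of the 95 lower genes, 17 were DEGs in the opposite direction and 10 in the same one, with a median of 0.36. The kind of locus again went with the direction, and inserted loci made up 52.7% of the higher and 13.8% of the lower DEGs of B15_early/RP_early, with a median log2 fold change of 0.55 against -0.02 for the other loci. The interaction of BPH15 and background was past an adjusted p of 0.05 for 420 of the 571 higher (73.6%) and 90 of the 116 lower DEGs (77.6%), beside 55.7% of 25351 genes tested (60.7% at an unadjusted p). These shares are a description, since the DEGs were chosen on libraries that enter the interaction. In the BPH15 region, Os04g0200400, Os04g0202700 and Os04g0196600 had log2 fold changes of -8.96, 4.91 and -1.17 in B15_early/RP_early, each with the sign it had in B1415_early/B14_early. Os04g0197200 (0.79) also kept its sign. Other DEGs of the region did not. Os04g0218600, Os04g0269900 and Os04g0217900, higher in B1415_early, were DEGs in the opposite direction in B15_early/RP_early (-1.56, -1.21 and -1.17). Os04g0178400, Os04g0196850 and Os04g0201900 had the opposite sign there (0.46, 0.12 and -0.23) and did not pass the adjusted p.

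**Figure D4:**
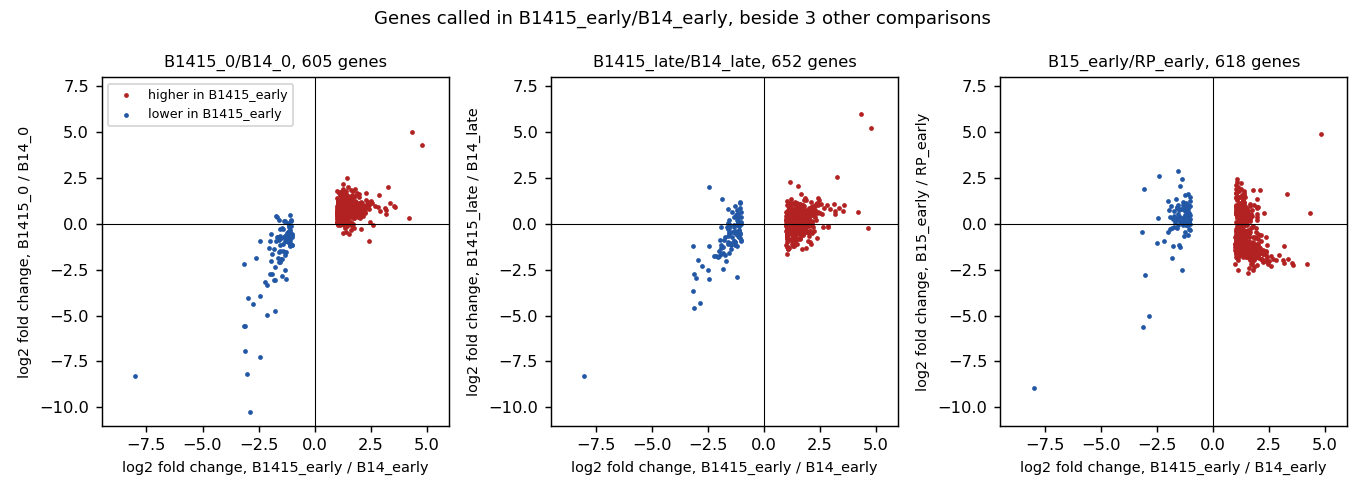
Log2 fold change of the DEGs of B1415_early/B14_early (horizontal axes) against their log2 fold change before feeding, late in feeding and in B15_early/RP_early (vertical axes), for 605, 652 and 618 genes tested in both, red for DEGs higher in B1415_early and blue for lower ones. Most genes keep their sign before feeding (488 of 508 red points), and in B15_early/RP_early 129 of the 523 red points lie above 0.

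The levels in the 4 lines place the DEGs beside RP. Over the 571 higher DEGs, the median level was 1.41, 1.08 and 1.73 CPM in the B14_early libraries and 3.85, 3.25 and 3.35 CPM in those of B1415_early. It was 3.17 to 3.49 CPM in RP_early and 1.87 to 2.31 CPM in B15_early, so by this median B1415_early was near RP_early and both single-gene lines were lower. The order differed by kind of locus. Over the higher DEGs whose identifiers end in 00, RP_early was at 6.26 to 7.47 CPM and B1415_early at 5.40 to 6.47 CPM, with B14_early at 1.75 to 2.66 CPM and B15_early at 2.87 to 3.38 CPM. Over the inserted loci, RP_early (1.13 to 1.40 CPM) overlapped B14_early (0.741 to 1.37 CPM) and lay below B15_early (1.44 to 1.77 CPM) and B1415_early (2.36 to 2.75 CPM). The median over all 571 higher DEGs was 2.48 and 2.34 CPM in B14_0-1 and B14_0-2 but 0.313 CPM in B14_0-3. In B14_late this median ranged from 2.25 to 3.79 CPM and overlapped B1415_late. RP_early was nearer to B1415_early than to B14_early for 386 of the 571 genes, and B15_early for 191. Over the 116 lower DEGs, the median level was 2.47 to 2.57 CPM in B14_early and 0.695 to 0.886 CPM in B1415_early, with RP_early at 1.18 to 1.40 CPM and B15_early at 1.35 to 1.65 CPM. RP_early was nearer to B1415_early for 77 of the 116. For most DEGs in both directions, RP_early thus lay nearer to B1415_early than to B14_early. The same count was not made over all genes tested, and the DEGs were chosen on B14_early and B1415_early. These counts are therefore a description.

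**Figure D5:**
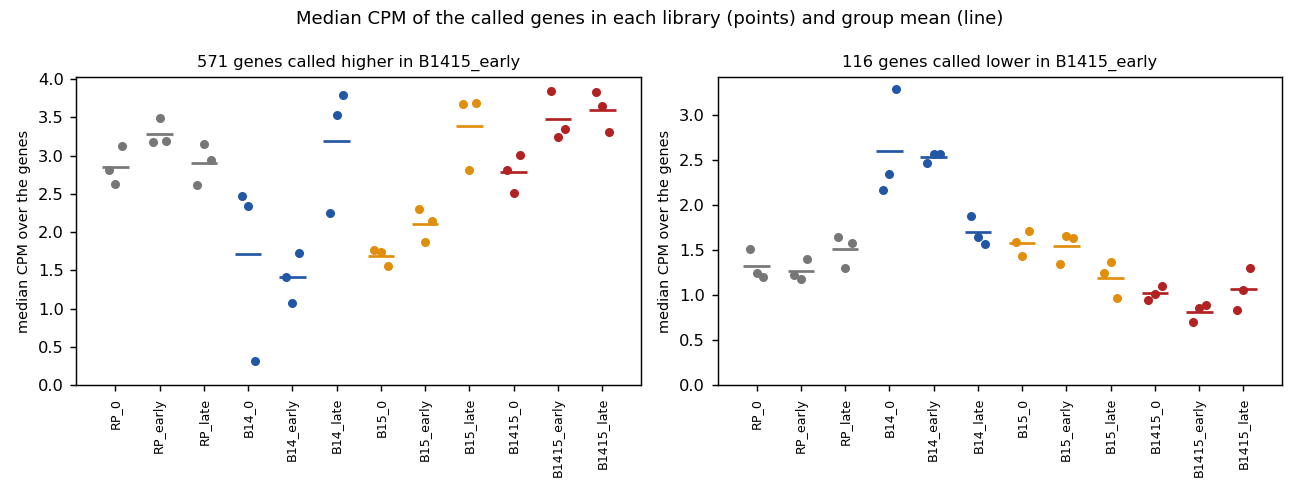
Median CPM over the 571 DEGs higher in B1415_early (left) and the 116 lower ones (right) in each of the 36 libraries (points), with the mean of the 3 libraries of a group (line), by line and stage. On the left, B14_early lies at 1.08 to 1.73 CPM and B1415_early at 3.25 to 3.85 CPM, apart by the choice of the genes, and the point at 0.313 CPM is B14_0-3.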

How the data were processed

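Reads were trimmed by the authors, mapped to the rice genome IRGSP-1.0 with HISAT2 (2.0.4 in the submitters' processing notes) and counted per gene with HTSeq. The annotation release and the strand setting are not given in the sources used here. The deposited table holds these raw counts, 38978 genes in 36 libraries, with 0 columns left out. The labels and the methods name different library kits (rRNA depletion and poly-A selection) and sequencers, which could shift noncoding RNA. The main tests used edgeR 4.0.16 (R 4.3.3, limma 3.58.1), and DESeq2 1.42.0 was an alternative. The 6 libraries were fitted alone, after filterByExpr with a minimum count of 10 and TMM scaling. CPM values are scaled by TMM over 36 libraries. Errors after ± are approximate standard errors, derived from the log2 fold change and the F statistic of the quasi-likelihood test. The replicates are biological according to the methods, and the p-values measure the spread between the 3 libraries of a group. The fits were checked on simulated data.

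The genes to name were the 15 largest DEGs in each direction with separate groups and a mean of at least 1 CPM, the called genes of the BPH15 region, called list members and 21 genes taken from the paper. The comparison, these rules and the gene lists were chosen with earlier results of these data known. Names and roles come from the paper and its supplementary tables of DEGs, which the study called on these samples. They annotate 1582 loci, and the reference table given matched 1 locus identifier. Lists written from memory (phenylalanine ammonia-lyases, JAZ and others) were therefore dropped where no source annotated their members, most unnamed loci are left out of the text, and the annotated DEGs, those with the most counts and the interaction genes were added after their values had been seen. Columns of the authors' own comparisons were not used. The alternatives were DESeq2's size factors, no filter, DESeq2, a single fit of 36 libraries, the replicate number as a block, an unadjusted p, leaving out each of the libraries, and, added after the data had been seen, the library total as the only scaling.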

Additional observations from a re-analysis of the deposited data

Results flagged for a closer look

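The interaction of BPH15 and background at the early stage stands here because B1415_early/B14_early and B15_early/RP_early differed from each other for many genes. BPH15 cannot be told apart here from other differences between the lines. By edgeR at an adjusted p below 0.05, 14126 genes passed (55.7% of those tested). Among them were 420 of the DEGs higher (73.6%) and 90 of the DEGs lower (77.6%) in B1415_early/B14_early.

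The interaction of line and stage stands here for the 2 genes that passed it by edgeR at an adjusted p below 0.05, and 0 to 600 passed when a library was left out. The log2 difference between the early stage and 0 h was 7.46 for OsNAS1 (Os03g0307300), where the B1415_0 libraries were at 0 counts, so that the value depends on the prior count, and 3.03 for Os07g0529000.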

How the results depend on the processing

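The 687 DEGs of B1415_early/B14_early became 450 in a single fit of 36 libraries, and 424 to 1360 when a library was left out. The other settings gave 609 (DESeq2) to 920 (unadjusted p), and library totals as the only scaling gave 799 with 87.7% higher, beside 83.1%. The 13 DEGs of the BPH15 region ranged from 9 to 18 with a library left out, and from 11 to 19 otherwise. The 22 DEGs of B1415_0/B14_0 became 241 with DESeq2, 449 in a single fit, 746 at an unadjusted p and 0 to 354 with a library left out. For B1415_late/B14_late (676) the unadjusted p gave 1214, and leaving out a library gave 9 (without B14_late-3) to 1938 (without B1415_late-3). B15_early/RP_early (3332) gave 2868 to 4285. The interaction of line and stage (2) gave 27 with DESeq2, 4 in a single fit, 1078 at an unadjusted p and 0 to 600 with a library left out, and that of BPH15 and background gave 13030 to 14719. The causes were not tested.

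Libraries of the 2 lines with the same number did not deviate together (correlations 0.0136, 0.000359 and -0.0752), so the numbers do not pair them. With the replicate block there were 724 DEGs, 640 of them among the 687, 0 in B1415_0/B14_0 and 0 in the interaction of line and stage, and the other counts stayed within 1.5 times.

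Of 53 named DEGs, 23 kept the call in every alternative and 30 lost it in at least 1. Genes near 0 changed sign: TBP (0.04 without B1415_early-1 or B14_early-2, from -0.05 to 0.04 with a library left out), SDHA (-0.01 in the single fit, -0.03 to 0.06 with a library left out, lowest without B14_early-2), OsGRP5 (0.06 without B1415_early-2 or B14_early-2, from -0.18 to 0.06) and OsGDI3 (-0.08 without B14_early-2, from -0.08 to 0.39). Genes below about 1 CPM are limited by depth.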
